A study of Rattus norvegicus with 36 samples.

Results

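Decabromodiphenyl ether (decaBDE), a brominated flame retardant, was given to male Sprague Dawley rats by gavage, and 100 liver genes were followed here because, once a set of genes mostly of drug metabolism was left out by name, their signal climbed most steadily with dose. Of 14217 genes that the array annotation names singly, 9867 had a mean level of 5 or more on the log2 scale in their brightest probe set, and these were ranked by Spearman's correlation between signal and dose rank (0 for vehicle, 5 for the highest dose) over 36 arrays. Of these, 147 were left out by name, so the 100 members are the highest of 9720. Left out were symbols starting with Cyp, Ugt, Gst, Sult, Abc, Ces, Aldh or Slco (cytochromes P450, conjugating enzymes, transporters and others) and 7 single genes. Not all of them act in drug metabolism: Ahr is a receptor, Cndp2 a dipeptidase, Mmgt1 a membrane magnesium transporter and Stbd1 a glycogen-binding protein. Dosing began at 7 weeks of age, on the NTP-2000 diet, and lasted 5 consecutive days. Controls received corn oil alone (vehicle, 5 ml/kg), and the treated groups received decaBDE in that volume at 959 mg/kg or at 1 of 4 lower doses, 95.9, 9.59, 0.959 and 0.1 mg/kg. Liver was taken from the left lobe 1 day after the last dose, with 6 arrays in each of the 6 groups. The labels do not say that each array is a separate rat, so the spread given below is that between arrays. Liver RNA holds many cell types, and fewer cells of a type cannot be told apart from less RNA per cell.

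Liver meets foreign chemicals largely through nuclear receptors and other ligand-activated factors. CAR and PXR raise the Cyp2b and Cyp3a genes and commonly come with a growing smooth endoplasmic reticulum, while the aryl hydrocarbon receptor (AhR) raises Cyp1a1. P450 enzymes need electrons from partner proteins, heme and membrane to sit in, and so draw on electron transfer, lipid and secretory pathway genes. The members below are ordered by these and other roles, which were assigned after their names were known and cover 65 of the 100. A link of the members to P450 enzymes was not tested.

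The rule used every dose group, so the members' dose differences chose them and are given as a description. Members' correlations ran from 0.534 to 0.938 with a median of 0.596, against a median of 0.028 over all ranked genes. Cyb5a stood highest at 0.938, Tex2 next at 0.781, and 11 members reached 0.7. At the edge, Anxa1 and Omd were just inside at 0.534, and Cs and Mccc2 just outside at 0.532. In all, 131 ranked genes reached the edge, 31 of them left out by name, while 34 genes reached the same size with a negative sign. Among the 31, Cndp2 (0.839) and Mmgt1 (0.800) stood above Tex2, and Stbd1 was at 0.680. Members were brighter than most genes, with a median level of 9.05 against 7.48 over all ranked genes.

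Most of the climb was small. The median member was higher than in vehicle by 0.036 at 0.1 mg/kg, 0.12 at 0.959, 0.19 at 9.59, 0.21 at 95.9 and 0.23 at 959 mg/kg on the log2 scale, the scale of all signals and differences below. Over all 9867 ranked genes the same medians were 0.0064, 0.012, 0.022, 0.020 and 0.0037. At 959 mg/kg the members' differences from vehicle ran from 0.082 to 1.27; 2 of them (Inmt and Retreg1) were 1 or more, 12 were 0.5 or more and 43 were under 0.2. Members above the vehicle mean numbered 76 of 100 at 0.1 mg/kg, 97 at 0.959 and all 100 at each higher dose. The median of the members on a single array, relative to the vehicle mean, ran from -0.041 to 0.078 in vehicle, from 0.124 to 0.210 at 9.59 and from 0.160 to 0.266 at 959 mg/kg, so these groups did not overlap the vehicle arrays. In the 0.1 mg/kg group it ran from -0.012 to 0.139, and the 0.139 belonged to replicate 6, the array with the lowest estimated weight of all (0.517); without it the members' median at that dose was 0.020.

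**Figure D1:**
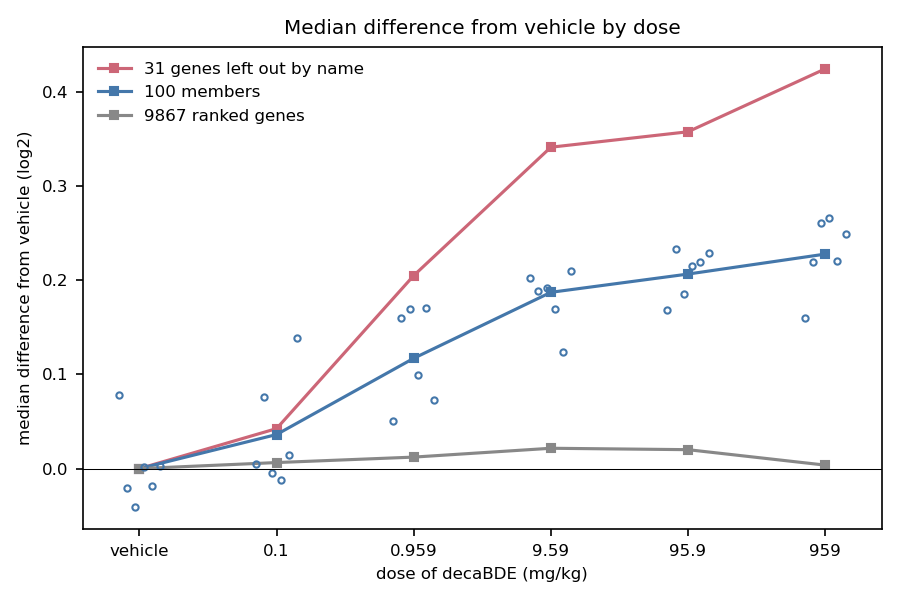
Median difference from the vehicle mean (log2, vertical axis) at each dose (mg/kg, horizontal axis) for the 100 members, the 31 genes left out by name that reached the members' edge and all 9867 ranked genes; open circles give the members' median on each array. The members' line is at 0.12 at 0.959 mg/kg and ends at 0.23, while the line for all ranked genes stays at or below 0.022.

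By limma over 31042 probe sets, with Benjamini-Hochberg adjusted p under 0.05, the members called higher than vehicle numbered 0, 0, 11, 6 and 7 at the rising doses. The share called higher among all probe sets was 0.0%, 0.029%, 0.106%, 0.0838% and 0.103%, and the rule used the same arrays, so nothing is read from the members' counts. At an unadjusted p under 0.05, 4, 38, 71, 85 and 96 members were higher, beside 2.22%, 3.12%, 4.66%, 3.53% and 3.55% of all probe sets, and without variance moderation 0 and 1 were called at the lowest 2 doses. The straight line in dose rank called 50 members, with 0.335% of all probe sets called. Cyb5a, Tex2, Vav2 and App were called at 9.59, 95.9 and 959 mg/kg. The counts turned on single arrays. At 9.59 mg/kg the count was 6, 5 or 4 without vehicle replicate 2, 3 or 5 and 3, 6, 7 or 5 without replicate 1, 2, 4 or 6 of that dose. At 959 mg/kg it was 2 or 4 without vehicle replicate 3 or 5, 11, 2 or 4 without replicate 2, 3 or 4 of that dose, and 12 without replicate 6 of the 0.1 mg/kg group; the trend called 33 without replicate 4 of 959 mg/kg. All 6 arrays of a dose lay above every vehicle array for 0, 8, 20, 26 and 29 members at the rising doses, beside 0.0608%, 0.416%, 0.922%, 0.709% and 0.608% of all ranked genes.

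By 9.59 mg/kg most members had passed the midpoint of their climb. The midpoint between the vehicle and the 959 mg/kg mean was passed for good at 0.959 mg/kg by 51 members, at 9.59 by 33, at 95.9 by 11, at 0.1 by 3 (Bean1, Fkbp3 and Mbl2) and at 959 by 2 (Nqo1 and Retreg1). Nqo1 was late only with replicate 1 of 959 mg/kg, without which it passed at 95.9; Retreg1 passed at 95.9 without vehicle replicate 5, replicate 1 or 3 of 95.9 or replicate 5 or 6 of 959 mg/kg. With single arrays left out, 1 to 9 members passed at 0.1 mg/kg, 41 to 58 at 0.959 and 25 to 44 at 9.59. At 95.9 mg/kg 6 to 18 passed, and at 959 1 to 4. Without replicate 3 or 5 of 0.959 mg/kg, 41 passed at 0.959 and 44 at 9.59. Among the 31 genes left out by name the midpoint fell at 0.959 mg/kg for 19 and at 9.59 for 8. Outside the members, 211 ranked genes differed at 959 mg/kg by at least the members' median. Of them, 48 passed the midpoint at 0.959 mg/kg and 61 at 959, but these were picked by their value at the highest dose. Most of the 31 genes left out by name are among the 211, so these sets overlap. The rule used these group means, so the members' midpoints are a description too. The largest single step ended at 0.959 mg/kg for 45 members and at 9.59 for 28. The highest group mean was at 959 mg/kg for 49 members, at 95.9 for 30 and at 9.59 for 21, and only 12 members stepped up at every dose.

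**Figure D2:**
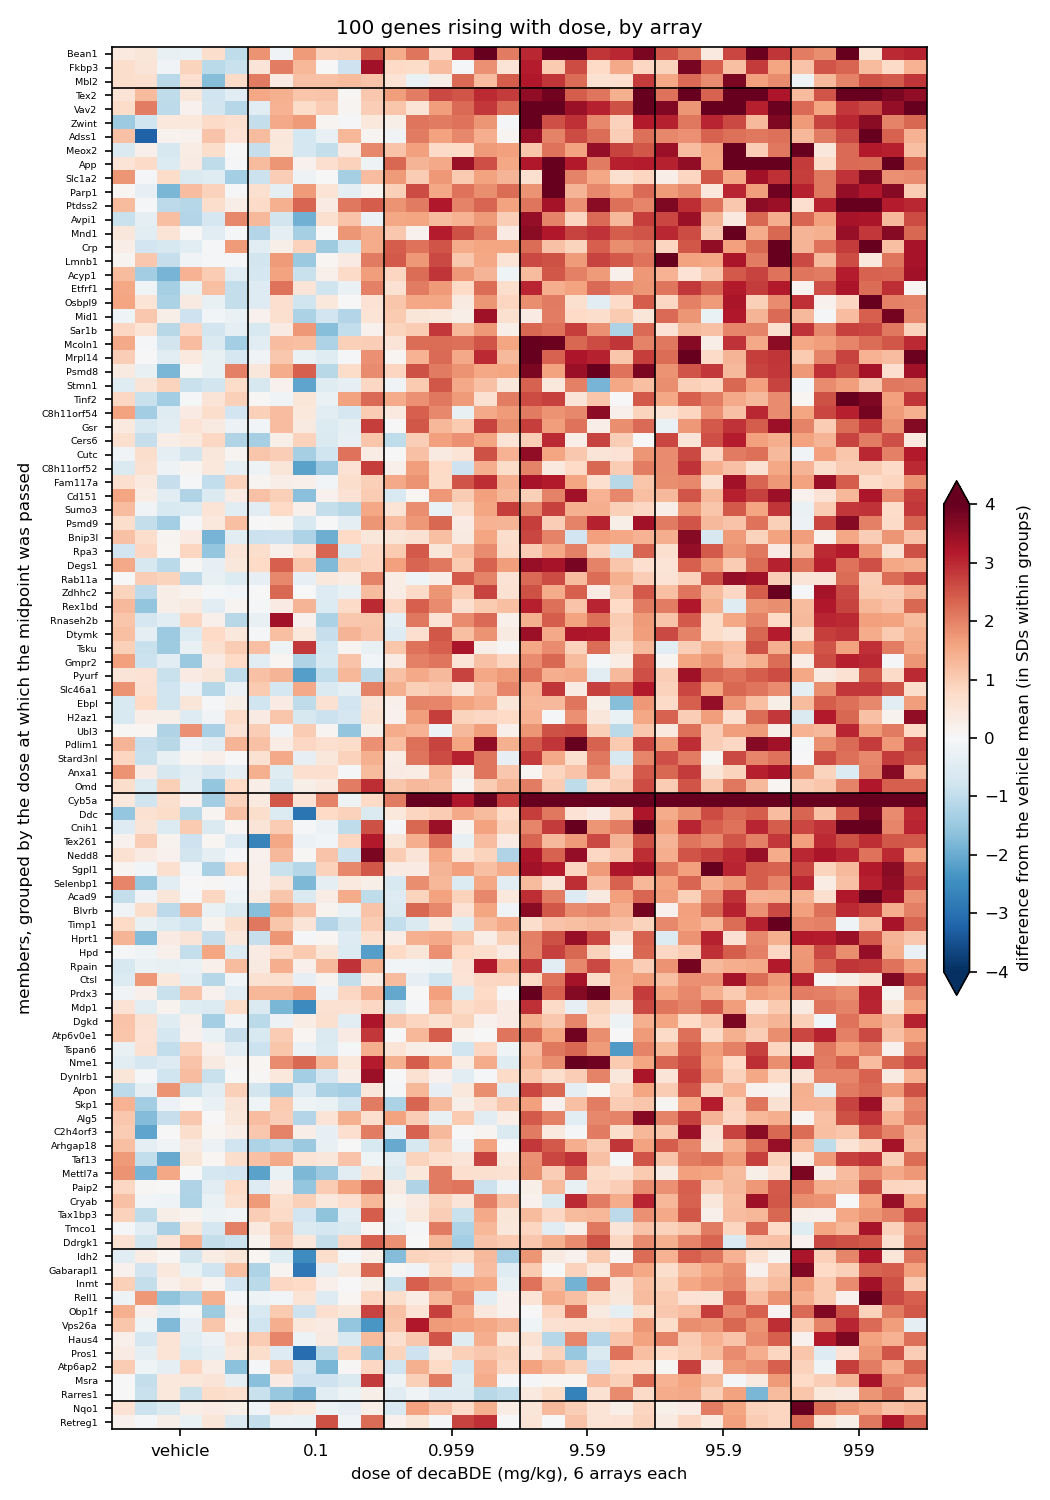
Each row is 1 of the 100 members and each column 1 of the 36 arrays, ordered by dose (mg/kg); colour gives the difference from the vehicle mean in units of the member's SD within groups. Rows are blocked by the dose at which the midpoint was passed, from 0.1 mg/kg at the top to 959 at the bottom, and the block of 51 members that passed it at 0.959 mg/kg is mostly red from that dose on.

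**Figure D3:**
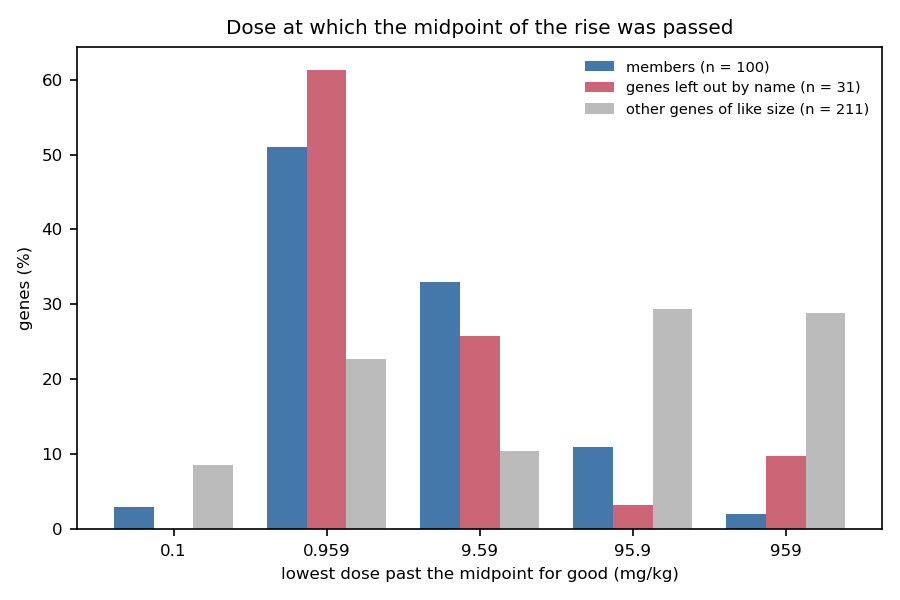
Share of genes (%, vertical axis) by the lowest dose (mg/kg, horizontal axis) at which the group mean passed the midpoint and stayed past it. The midpoint lies between vehicle and 959 mg/kg. Bars are for 100 members, 31 genes left out by name and 211 ranked genes outside the members. The 211 differed at 959 mg/kg by at least the members' median and include most of the 31, so these bars share genes. The bar at 0.959 mg/kg is 51% for members and 61.3% for the left-out genes.

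Among members of redox and electron transfer, Cyb5a encodes microsomal cytochrome b5, which passes electrons to P450 enzymes and fatty acid desaturases. Its lowest, median and highest signals were 13.55, 13.60 and 13.62 in vehicle, 13.58, 13.61 and 13.67 at 0.1 mg/kg, 13.66, 13.71 and 13.74 at 0.959, 13.73, 13.75 and 13.79 at 9.59, 13.75, 13.82 and 13.84 at 95.9 and 13.80, 13.83 and 13.89 at 959 mg/kg. Every array from 0.959 mg/kg up lay above every vehicle array, and the mean climbed at each of the 5 steps. The difference at 959 mg/kg was 0.24 (SE 0.034), with limma's standard error of a difference between 6 and 6 arrays, and a fold of 1.19, and the SD within groups, 0.031, was the smallest of all members. Cyb5a was thus the steadiest member but not a large one, and it had the highest mean level of them all, 13.72.

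Nqo1 encodes a quinone reductase that is a textbook target of both AhR and NRF2. Its lowest, median and highest signals were 6.98, 7.43 and 7.56 in vehicle, 7.19, 7.34 and 7.54 at 0.1, 7.08, 7.71 and 7.97 at 0.959, 7.43, 7.61 and 7.84 at 9.59, 7.41, 7.69 and 8.15 at 95.9 and 7.80, 7.99 and 9.98 at 959 mg/kg. All arrays of the highest dose lay above vehicle, and 1 of them, replicate 1, stood far above the rest at 9.98, with the next at 8.22. The difference at 959 mg/kg was 0.98 (SE 0.22), and without replicate 1 it was 0.65.

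Gsr, which recycles oxidised glutathione, was higher at 959 mg/kg by 0.37 (SE 0.091), with 6 of 6 arrays above all vehicle arrays. Blvrb, a biliverdin and flavin reductase, had signals of 10.18, 10.24 and 10.37 in vehicle and 10.38, 10.44 and 10.57 at 9.59 mg/kg, with 6 of 6 arrays above vehicle there. Prdx3, a mitochondrial peroxidase, was highest at 9.59 mg/kg, by 0.16 (SE 0.038), and Msra, which repairs oxidised methionine, at 959 mg/kg, by 0.25 (SE 0.085). The largest step of Nqo1, 0.58, was from 95.9 to 959 mg/kg; without replicate 1 of 959 mg/kg that step was 0.25, and the largest, 0.28, ended at 0.959 mg/kg. The gene starts of Cyb5a and Nqo1 are shown because Cyb5a had the highest correlation and Nqo1 is the member on both the AhR and the NRF2 list. The sequences run from 250 bases before to 50 after the RefSeq gene start in build GRCr8, on the strand of the gene, at chr18:80487759-80488058 (plus strand) for Cyb5a and chr19:52220218-52220517 (minus strand) for Nqo1; capitals mark CCAAT on either strand and, in Nqo1, TATAAA.
Cyb5a: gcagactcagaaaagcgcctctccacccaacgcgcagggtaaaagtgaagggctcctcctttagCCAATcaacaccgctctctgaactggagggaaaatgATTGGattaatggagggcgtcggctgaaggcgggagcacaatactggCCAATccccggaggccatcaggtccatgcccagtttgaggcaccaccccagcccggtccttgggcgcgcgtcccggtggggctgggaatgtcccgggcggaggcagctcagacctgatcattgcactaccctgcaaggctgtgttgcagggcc
Nqo1: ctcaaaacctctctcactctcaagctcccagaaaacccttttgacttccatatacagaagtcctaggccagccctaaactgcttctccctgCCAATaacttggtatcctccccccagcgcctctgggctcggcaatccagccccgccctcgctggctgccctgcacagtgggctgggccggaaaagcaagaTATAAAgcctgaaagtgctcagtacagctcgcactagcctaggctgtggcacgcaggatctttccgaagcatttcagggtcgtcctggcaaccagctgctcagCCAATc
The Cyb5a window holds CCAAT letters 186, 150 and 103 bases before the start, and that of Nqo1 holds TATAAA 59 bases and CCAAT 159 bases before it. Read on both strands, CCAAT was in 30 of 89 member promoters, 33.7%, and in 38.2% of promoters of ranked genes. TATAAA was in 11.2% and 7.1% of them.

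**Figure D4:**
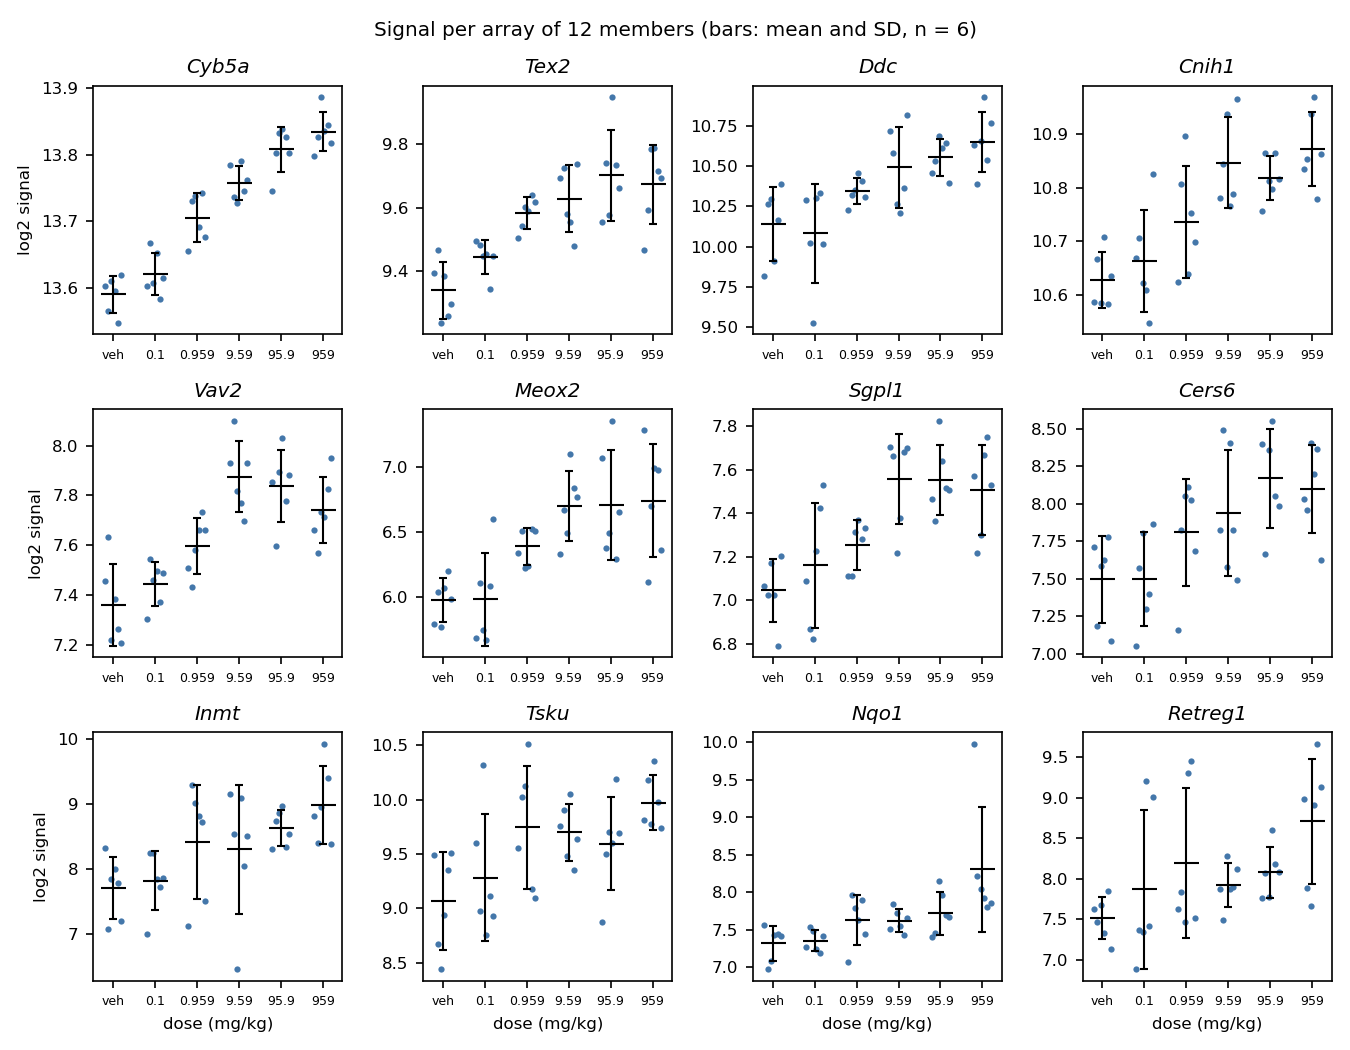
Log2 signal (vertical axes, each on its own scale) on each array by dose (mg/kg, horizontal axes) for 12 members, with bars for the mean and SD of 6 arrays. Cyb5a steps up at every dose with little spread, Vav2 and Sgpl1 level off from 9.59 mg/kg, and Nqo1 and Retreg1 are highest at 959 mg/kg, with wide spread.

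Mitochondria gave 4 members besides Prdx3. Idh2, an NADPH-making isocitrate dehydrogenase, had signals of 9.85, 9.97 and 10.001 in vehicle, 9.63, 9.95 and 10.03 at 0.1, 9.96, 10.03 and 10.22 at 9.59 and 10.002, 10.19 and 10.35 at 959 mg/kg. All arrays of the highest dose lay above vehicle, the lowest barely so and the mean by 0.25 (SE 0.072), while those at 9.59 mg/kg overlapped it. Mrpl14, of the mitochondrial ribosome, was highest at 9.59 mg/kg, at 9.19, 9.40 and 9.54 against 8.99, 9.05 and 9.18 in vehicle, with no overlap and a difference of 0.32 (SE 0.068). Acad9, needed to assemble respiratory complex I, stepped up at every dose and was higher by 0.26 (SE 0.064) at 959 mg/kg, and Etfrf1, a regulator of electron transfer flavoprotein, was highest at 95.9 mg/kg, by 0.26 (SE 0.058).

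Amino acids and amines are handled by 4 members. Ddc, the decarboxylase that makes dopamine and serotonin, had signals of 9.82, 10.22 and 10.39 in vehicle, 10.21, 10.47 and 10.81 at 9.59 and 10.39, 10.64 and 10.93 at 959 mg/kg, and 5 of the 6 arrays at the highest dose lay above all vehicle arrays. That difference was 0.51 (SE 0.12), a fold of 1.42. Its second probe set, dim at a mean level of 5.00, had a correlation of -0.182 with dose rank.

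Inmt, an N-methyltransferase of tryptamine and related amines, gave the largest difference of all members. Signals were 7.08, 7.81 and 8.33 in vehicle, 7.12, 8.77 and 9.29 at 0.959, 6.46, 8.52 and 9.15 at 9.59 and 8.38, 8.88 and 9.92 at 959 mg/kg. Arrays of the middle doses overlapped vehicle, and the lowest at 9.59 mg/kg was below every vehicle array. The difference at 959 mg/kg was 1.27 (SE 0.35), a fold of 2.41.

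Slc1a2, a glutamate transporter of pericentral hepatocytes, had signals of 5.40, 5.63 and 6.06 in vehicle and 6.07, 6.20 and 6.47 at 959 mg/kg, with no overlap, and differed by 0.53 (SE 0.12). Its limma call at that dose (Benjamini-Hochberg adjusted p = 0.0488) was lost in 30 of 45 alternative settings, with an adjusted p of 0.0147 to 0.192 over all 45. Hpd, of tyrosine breakdown, was higher by 0.11 (SE 0.044).

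Members of lipid metabolism included 3 sphingolipid enzymes. Sgpl1, the lyase that breaks down sphingosine-1-phosphate, had signals of 6.79, 7.04 and 7.20 in vehicle, 7.11, 7.30 and 7.37 at 0.959, 7.22, 7.67 and 7.70 at 9.59, 7.36, 7.51 and 7.83 at 95.9 and 7.22, 7.55 and 7.75 at 959 mg/kg. From 9.59 mg/kg on, every array lay above every vehicle array, and the means of the 3 highest doses, 7.56 ± 0.21, 7.55 ± 0.16 and 7.51 ± 0.21 (SD, n = 6 each), differed by less than their spread. Cers6, a ceramide synthase, had signals of 7.09, 7.61 and 7.78 in vehicle and 7.67, 8.21 and 8.56 at 95.9 mg/kg, where 5 of 6 arrays were above vehicle and the difference was 0.67 (SE 0.18). Degs1, the desaturase of the last step to ceramide, was higher by 0.18 (SE 0.049) at 9.59 and 0.16 (SE 0.049) at 959 mg/kg. The median of these 3 genes was 0.054, 0.208, 0.441, 0.507 and 0.461 at the rising doses.

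Tex2, a lipid-binding protein of the endoplasmic reticulum membrane, had signals of 9.24, 9.34 and 9.47 in vehicle, 9.34, 9.45 and 9.50 at 0.1, 9.51, 9.60 and 9.64 at 0.959 and 9.47, 9.71 and 9.79 at 959 mg/kg. From 0.959 mg/kg on, every array lay above every vehicle array, and the difference at 95.9 mg/kg was 0.36 (SE 0.061). Ptdss2, a phosphatidylserine synthase, was higher at 0.959 mg/kg by 0.19 (SE 0.056) and at 959 by 0.29 (SE 0.056), and Osbpl9 and Stard3nl, which belong to families of sterol carriers, by 0.19 (SE 0.057) and 0.19 (SE 0.059) at 959 mg/kg.

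In the endoplasmic reticulum and on the way out of it act 7 members, and 5 of them passed their midpoint at 9.59 mg/kg. Cnih1, a cargo receptor for export from the endoplasmic reticulum, had signals of 10.58, 10.61 and 10.71 in vehicle, 10.62, 10.73 and 10.90 at 0.959, 10.77, 10.82 and 10.97 at 9.59 and 10.78, 10.86 and 10.97 at 959 mg/kg. No array from 9.59 mg/kg up overlapped vehicle, and the difference at 959 mg/kg was 0.25 (SE 0.051). Tex261, of the same early secretory route, had signals of 8.68, 8.76 and 8.82 in vehicle and 8.88, 8.95 and 8.98 at 959 mg/kg, apart by 0.20 (SE 0.051). Its mean stepped up at every dose, although the 0.1 mg/kg arrays spread on both sides of vehicle.

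Sar1b, the small GTPase that starts COPII coats, had signals of 11.13, 11.23 and 11.29 in vehicle and 11.30, 11.42 and 11.46 at 959 mg/kg and was higher by 0.19 (SE 0.053). In the list of translocation, membrane insertion and COPII genes it was the only member among 47 measured genes, 36 of which had a positive correlation, with a median of 0.16. The 28 measured chaperone and unfolded protein response genes had 0 members and a median correlation of -0.007.

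Retreg1, a receptor that sends endoplasmic reticulum to autophagy, was the most variable member, with an SD within groups of 0.66. Signals were 7.13, 7.55 and 7.85 in vehicle, 6.89, 7.39 and 9.21 at 0.1, 7.46, 7.73 and 9.45 at 0.959, 7.50, 7.89 and 8.28 at 9.59 and 7.66, 8.95 and 9.67 at 959 mg/kg. At 0.1 and 0.959 mg/kg some arrays passed 9 while the median stayed near vehicle, and at 959 mg/kg 5 of 6 arrays lay above vehicle. The difference at 959 mg/kg was 1.19 (SE 0.36); the gene's other probe set had a correlation of -0.022, and Retreg1 was chosen again in 15 of 36 repeats that each left out 1 array.

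Endosomes, lysosomes and autophagy gave 8 members, and their differences at 959 mg/kg ran from 0.082 to 0.342. Mcoln1, a lysosomal calcium channel, was higher by 0.32 (SE 0.063) at 9.59 and 0.22 (SE 0.063) at 959 mg/kg, with 6 of 6 arrays above vehicle at both. Gabarapl1, of the autophagosome membrane, was higher by 0.19 (SE 0.097) at 95.9 and 0.34 (SE 0.097) at 959 mg/kg, and its second probe set also had a correlation of 0.638. The lysosomal protease Ctsl differed by 0.16 (SE 0.057), and the proton pump parts Atp6v0e1 and Atp6ap2 by 0.22 (SE 0.06) and 0.12 (SE 0.05).

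Protein tagging and turnover gave 7 members. Nedd8, the modifier that activates cullin ubiquitin ligases, had signals of 11.11, 11.16 and 11.20 in vehicle and 11.26, 11.35 and 11.37 at 959 mg/kg, and no array from 9.59 mg/kg up overlapped vehicle; the difference at 959 was 0.18 (SE 0.046). Psmd8, a subunit of the proteasome's regulatory cap, was highest at 9.59 mg/kg, with signals of 9.92, 10.06 and 10.23 in vehicle and 10.20, 10.36 and 10.42 at that dose, a difference of 0.26 (SE 0.052). Psmd9, a chaperone of proteasome assembly, was highest there too, at 8.40, 8.64 and 8.75 against 8.23, 8.40 and 8.51, a difference of 0.23 (SE 0.066). Arrays overlapped vehicle in both. Of 31 measured proteasome genes, 30 had a positive correlation with dose rank, with a median of 0.291 and a median difference of 0.085 at 959 mg/kg, against 54.5% positive over all genes the rule allows; 1 of the 31 was called in the trend. Mid1, a ubiquitin ligase on microtubules, was dim, at 4.90, 5.17 and 5.64 in vehicle and 5.20, 5.84 and 6.69 at 959 mg/kg, and the difference of 0.68 (SE 0.21) came with overlapping arrays.

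DNA, chromatin and cell division gave 10 members, and 9 of them passed their midpoint at 0.959 mg/kg. Zwint, a kinetochore protein, had signals of 8.93, 9.10 and 9.13 in vehicle, 9.05, 9.24 and 9.26 at 0.959, 9.14, 9.31 and 9.53 at 9.59 and 9.22, 9.29 and 9.39 at 959 mg/kg, with no overlap with vehicle from 9.59 mg/kg up. It differed by 0.26 (SE 0.057) at 9.59 mg/kg and 0.23 (SE 0.057) at 959. Other members were named after their values were seen: Lmnb1, of the nuclear lamina, was higher by 0.66 (SE 0.13) at 95.9 mg/kg, Mnd1, of meiotic recombination, by 0.56 (SE 0.11) at 9.59, and Parp1, of DNA repair, by 0.27 (SE 0.059) at 959. The cell cycle list had 0 members among 26 measured genes, but its median correlation was 0.39 and its median difference at 959 mg/kg was 0.177, with 20 of 26 positive. The p53 and DNA damage list had 0 members of 11 and a median correlation of 0.063.

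Nucleotide metabolism gave 5 members. Adss1, of AMP synthesis, had signals of 6.52, 7.24 and 7.40 in vehicle and 7.43, 7.61 and 7.97 at 959 mg/kg, with no overlap and a difference of 0.46 (SE 0.11); the lowest vehicle array, at 6.52, stood well below the others. Nme1, a nucleoside diphosphate kinase, made its largest step, 0.172, at the lowest dose, with signals of 8.31, 8.36 and 8.51 in vehicle, 8.39, 8.57 and 8.74 at 0.1 and 8.52, 8.65 and 8.73 at 959 mg/kg. Hprt1, Gmpr2 and Dtymk were higher at 959 mg/kg by 0.164 to 0.185.

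Signalling and transcription members were led by Vav2. Its signals were 7.21, 7.32 and 7.63 in vehicle, 7.43, 7.62 and 7.74 at 0.959, 7.70, 7.87 and 8.10 at 9.59, 7.60, 7.87 and 8.03 at 95.9 and 7.57, 7.72 and 7.95 at 959 mg/kg. It was highest at 9.59 mg/kg, by 0.51 (SE 0.077), with all arrays above vehicle, and by 0.38 (SE 0.077) at 959. The 3 further Vav2 probe sets had correlations of 0.669, 0.716 and 0.730.

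App, the amyloid precursor protein, which was named after its values were seen, had signals of 10.67, 10.85 and 10.95 in vehicle, 11.17, 11.35 and 11.55 at 9.59 and 11.09, 11.48 and 11.65 at 95.9 mg/kg, where the difference was 0.60 (SE 0.092). At 959 mg/kg it was 0.43 (SE 0.092), with 5 of 6 arrays above vehicle, and its other probe sets had correlations of 0.756 and 0.784, above that of the chosen one (0.701).

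Meox2, a homeobox transcription factor, had signals of 5.77, 6.01 and 6.20 in vehicle, 5.67, 5.92 and 6.60 at 0.1, 6.23, 6.42 and 6.52 at 0.959 and 6.12, 6.84 and 7.29 at 959 mg/kg. All arrays at 0.959 lay above all vehicle arrays, while 1 array at 959 did not. The difference was 0.41 (SE 0.17) at 0.959 and 0.77 (SE 0.17) at 959 mg/kg. Rell1, a relative of the receptor RELT, stepped up at every dose, from 5.67, 6.07 and 6.57 in vehicle to 6.15, 6.61 and 7.35 at 959 mg/kg, with overlapping arrays and a difference of 0.55 (SE 0.14). Rpain, which carries replication protein A, was the dimmest member, at 5.12, 5.17 and 5.37 in vehicle and 5.43, 5.50 and 5.58 at 959 mg/kg, a difference of 0.30 (SE 0.076).

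Members placed in no role group numbered 35, Vav2, App, Meox2, Rell1 and Rpain among them, and their differences at 959 mg/kg ran from 0.095 to 0.766. Bean1, a membrane protein that binds the ubiquitin ligase NEDD4, was dim and passed its midpoint at 0.1 mg/kg, higher there by 0.15 (SE 0.07). That midpoint fell later without vehicle replicate 6, replicate 1, 3 or 6 of 0.1 mg/kg or replicate 4 of 959 mg/kg. Signals of Bean1 were 5.09, 5.22 and 5.30 in vehicle, 5.19, 5.37 and 5.51 at 0.1, 5.55, 5.62 and 5.79 at 9.59 and 5.28, 5.51 and 5.69 at 959 mg/kg. At 0.1 mg/kg 5 of its 6 arrays lay above all vehicle arrays, and its mean was highest at 9.59 mg/kg, above vehicle by 0.43 (SE 0.07). At 959 mg/kg the difference was 0.29 (SE 0.07). Pdlim1, a scaffold on actin fibres, had signals of 8.97, 9.11 and 9.42 in vehicle, 9.36, 9.63 and 9.94 at 9.59 and 9.16, 9.54 and 9.67 at 959 mg/kg and was also highest at 9.59, by 0.46 (SE 0.099). Zdhhc2, a palmitoyl transferase, was highest at 95.9 mg/kg, by 0.45 (SE 0.12), and Acyp1, an acylphosphatase, stepped up at every dose to 0.42 (SE 0.091). Selenbp1, a selenium-binding protein of liver, was higher by 0.20 (SE 0.054) at 959 mg/kg, with 4 of 6 arrays above vehicle. Slc46a1, the proton-coupled folate transporter, was highest at 9.59 mg/kg, by 0.27 (SE 0.073).

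Some members, of various roles, differed little or unevenly from vehicle. Vps26a, of the retromer, went against a steady climb, with all 6 arrays above vehicle at 0.959 mg/kg and 1 at 9.59. Rarres1 differed from vehicle by -0.14 (SE 0.13) at 0.959 mg/kg and by 0.26 (SE 0.13) at 959. The smallest differences at 959 mg/kg were those of Rab11a, 0.082 (SE 0.041), which recycles endosomes, Prdx3, 0.086 (SE 0.038), Alg5, 0.087 (SE 0.04), of protein glycosylation, and Pros1, 0.094 (SE 0.055), an anticoagulant. Tmco1, an endoplasmic reticulum calcium channel, was higher by 0.096 (SE 0.046) with 1 of 6 arrays above vehicle and was chosen again in 14 of 36 repeats with 1 array left out. The members not named elsewhere (Stmn1, C8h11orf54, Cutc, C8h11orf52, Tspan6, Fam117a, Dynlrb1, Apon, Cd151, Sumo3, Skp1, Rpa3, C2h4orf3, Rex1bd, Rnaseh2b, Arhgap18, Taf13, Pyurf, Mettl7a, Paip2, H2az1, Tax1bp3 and Ddrgk1) were higher at 959 mg/kg by 0.095 (Dynlrb1) to 0.454 (C8h11orf54).

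The role group of secreted proteins held 6 members. Tsku, a small secreted leucine-rich repeat protein made by liver, had signals of 8.44, 9.14 and 9.51 in vehicle, 8.75, 9.05 and 10.32 at 0.1, 9.09, 9.79 and 10.52 at 0.959 and 9.74, 9.89 and 10.36 at 959 mg/kg; only the highest dose was clear of vehicle, by 0.91 (SE 0.24). Crp, an acute phase protein, had signals of 12.80, 12.84 and 13.01 in vehicle, 12.99, 13.03 and 13.08 at 0.959 and 12.97, 13.08 and 13.29 at 959 mg/kg and was higher by 0.22 (SE 0.053) there. It was the only member among 26 measured acute phase and interferon genes, whose median correlation was 0.075. Omd, a matrix proteoglycan, sat at the edge of the rule, with signals of 7.37, 7.68 and 7.83 in vehicle and 7.84, 8.06 and 8.24 at 959 mg/kg.

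Timp1, an inhibitor of matrix proteases, was highest at 95.9 mg/kg: signals were 6.63, 6.79 and 6.99 in vehicle, 6.97, 7.07 and 7.10 at 9.59, 7.10, 7.27 and 7.87 at 95.9 and 6.77, 7.25 and 7.55 at 959 mg/kg. The 95.9 mg/kg arrays did not overlap vehicle and differed by 0.56 (SE 0.12). Anxa1, an annexin that dampens inflammation, was also highest there, at 7.44, 8.19 and 8.45 against 7.01, 7.12 and 7.91 in vehicle, a difference of 0.78 (SE 0.20). Cryab, a small heat shock protein, had signals of 6.53, 6.86 and 7.22 at 95.9 mg/kg and 6.14, 6.39 and 6.70 in vehicle, a difference of 0.43 (SE 0.13). Stellate cell and fibroblast markers, Timp1 itself one of the 16 measured, were also highest on average at 95.9 mg/kg. Their mean level was 6.99 (SD 0.249) in vehicle, 7.35 (SD 0.233) at 95.9 and 7.11 (SD 0.353) at 959 mg/kg. Their summed linear signal ran from 3452 to 5161 in vehicle and from 4490 to 6846 at 95.9 mg/kg. Of the 16, 14 (87.5%) had a positive correlation with dose rank, against 54.5% of all genes the rule allows. Within dose groups, group means were taken off and Timp1 was left out of the marker mean. That mean correlated with Anxa1 at 0.76, Cryab at 0.74 and Timp1 at 0.67. Cholangiocyte markers, with 5 measured, were at 6.86 in vehicle and 7.08 at 959 mg/kg and correlated with Cryab at 0.62. With these, 2 members reached 0.5, beside 0.527% of all ranked genes. The markers here are those of stellate cells, fibroblasts and cholangiocytes. Their part in the result was not tested.

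Most members had a dose profile closer to that of the Cyp2b genes than to that of Cyp1a1. The Cyp2b-subfamily probe set, whose genes the annotation does not tell apart, had mean signals of 10.96 in vehicle, 11.45 at 0.1, 13.04 at 0.959, 13.52 at 9.59, 13.51 at 95.9 and 13.56 at 959 mg/kg, so it was near its top by 9.59 mg/kg. Cyp1a1 stayed between 4.68 and 4.77 up to 9.59 mg/kg and was at 6.33 at 95.9 and 9.41 at 959 mg/kg. Over the 6 group means, 92 members had a profile more like the Cyp2b probe set by Pearson's r and 8 one more like Cyp1a1. Those 8 were Nqo1 (0.927 with Cyp1a1), Obp1f (0.885), Rell1 (0.877), Haus4 (0.861), Gabarapl1 (0.857), Idh2 (0.848), Retreg1 (0.83) and Rarres1 (0.787). Without replicate 1 of 959 mg/kg, left out of every gene, Nqo1 was closer to the Cyp2b probe set (0.883) than to Cyp1a1 (0.831), and Gabarapl1 and Idh2 were no longer among the 8. With each array left out in turn, 6 to 11 members were closer to Cyp1a1. The rule chose members by their climb over these same groups, so it had a part in this split. A correlation over 6 means that all climb is a description, and it carries no test.

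Spread between arrays of one dose lowers the rule's correlation and so had a part in choosing the members, whose median SD within groups was 0.112, against 0.130 over all ranked genes. Correlations within groups are therefore given as a description too. Over the 30 degrees of freedom left after group means were taken off, the members' median correlation with each other was 0.147 over 4950 pairs, with 4.18% at 0.5 or more, and over all pairs of ranked genes it was 0.018, with 1.89%. All these values share the same arrays. With the Cyp2b probe set the members' median was 0.13, 82 were positive and 2, Cyb5a (0.594) and Ubl3 (0.507), reached 0.5. Over all ranked genes that median was 0.019, with 0.203% at 0.5 or more. With Cyp1a1 the members' median was -0.031 and 0 reached 0.5, beside 0.001 and 0.111% over all ranked genes. The closest pair was Cryab and Anxa1 at 0.793, and Crp and Psmd8 stood at 0.726. The difference between 3' and 5' actin probe sets, a sign of RNA quality, was 1.16 in vehicle, 1.24 at 0.1 and 1.14 at 959 mg/kg. Its median correlation with the members was -0.094, against -0.005 over all ranked genes. Among other markers, Cers6 correlated with those of lymphocytes at 0.525, Bnip3l with erythroid ones at 0.644 and Mdp1 with periportal ones at 0.529. Each was the only member at 0.5 or more there, beside 3.65%, 0.314% and 1.03% of all ranked genes in that order. Nme1 stood at -0.657 with pericentral markers and Hpd at -0.611 with erythroid ones. Beside them, 0.831% and 0.203% of all ranked genes reached 0.5 with a negative sign.

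In all, 41 further probe sets were annotated to 31 of the members. Their median correlation with dose rank was 0.332, 34 were positive (82.9%) and 10 reached the members' edge (24.4%). Further probe sets of other ranked genes, 5477 in all, had a median of -0.022, with 45.8% positive and 0.183% at the edge. They were measured on the same arrays and often the same transcripts, so they show how far a member rests on 1 probe set and are no second experiment. Probe sets that did not follow the chosen one included that of Slc1a2 (-0.232, at a level of 2.97) and 1 of Dgkd (-0.258, at 5.96).

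**Figure D5:**
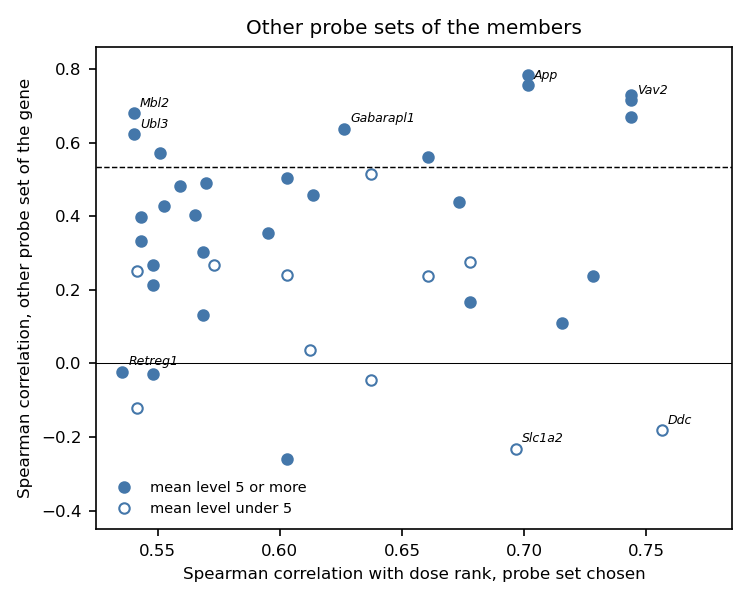
Spearman's correlation with dose rank for the 41 other probe sets of 31 members (vertical axis) against that of the probe set chosen (horizontal axis); open circles are probe sets with a mean level under 5 and the dashed line is the members' edge, 0.534. The 10 points above the line include all other probe sets of App and Vav2, and Ddc, Slc1a2 and Retreg1 have a point below 0.

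Pathway lists placed few members. Among genes that the rule allows, 3 of 16 NRF2 targets (Nqo1, Blvrb and Gsr) were members, with a median correlation of 0.282 over the list, 1 of 5 AhR targets (Nqo1; 0.168), 1 of 7 CAR and PXR targets (Tsku; 0.244), 2 of 17 heme genes (Cyb5a and Blvrb; 0.186) and 1 of 10 heat shock genes (Cryab; 0.063), against 1.03% and a median of 0.028 over all allowed genes. By limma at 959 mg/kg, counting the genes left out by name too, 5 of 15 measured CAR and PXR targets, 3 of 9 AhR targets, 1 of 17 NRF2 targets (Ephx1, also on the CAR and PXR list) and 1 of 17 heme genes (Cyb5a) were called higher, beside 0.103% of all probe sets. In the trend these counts were 7, 4, 4 and 2, beside 0.335% of all probe sets, with Ephx1, Nqo1 and Blvrb each counted on 2 lists. Lists with 0 members included cholesterol synthesis (median correlation -0.067), fatty acid and triglyceride synthesis (-0.124), PPARA targets (-0.334), ribosome biogenesis and translation factors (-0.225), amino acid and integrated stress (-0.092), oxidative phosphorylation (0.086), thyroid hormone response (0.063) and sugar nucleotide and NADPH supply (0.027). In the trend, 1 of 24 PPARA targets (Acot3) and 1 of 16 fatty acid genes (Fads2) were called lower, with 0.058% of all probe sets called lower. Among markers, Slc1a2 was 1 of 6 allowed pericentral genes (0.08), and periportal (-0.276), hepatocyte (-0.04), Kupffer cell and macrophage (-0.011), endothelial (-0.01), cholangiocyte (0.377), lymphocyte (-0.043), neutrophil (0.049), erythroid (-0.023) and exocrine pancreas (0.09) lists had 0 members. Hepatocyte markers were bright in every group, with a mean level of 13.3 in vehicle and at 959 mg/kg, as the liver label has it. Several marker lists were lower than in vehicle at the doses where most members passed their midpoint, and at 0.1 mg/kg too. The mean level of 11 measured periportal markers was 10.78 (SD 0.037) in vehicle, 10.62 (SD 0.022) at 0.959, 10.60 (SD 0.057) at 9.59 and 10.69 (SD 0.132) at 959 mg/kg. That of 10 Kupffer cell and macrophage markers was 9.06 (SD 0.366), 8.63 (SD 0.253), 8.73 (SD 0.254) and 8.91 (SD 0.287) in the same groups. That of 8 lymphocyte markers was 6.13 (SD 0.202), 5.83 (SD 0.083), 5.90 (SD 0.208) and 6.07 (SD 0.175). At 0.1 mg/kg these lists, in that order, were at 10.72 (SD 0.093), 8.65 (SD 0.489) and 5.97 (SD 0.227). Of 8 pericentral markers the level was 9.95 (SD 0.088) in vehicle and 10.12 (SD 0.074) at 959 mg/kg. Among the 8, Slc1a2, a member, and Cyp1a2, left out by name, each differed from vehicle by 0.53 at 959 mg/kg. The others ran from -0.063 (Tbx3) to 0.302 (Oat). The part of these marker lists in the members' values was not tested.

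Promoters of 89 members were found in the RefSeq table. The palindrome TGACGTCA, the letters of the cAMP response element, was in 7 of them (7.9%), and in 3.1% of promoters of ranked genes and 1.9% of all 27456 promoters. The 7 were those of Avpi1, Osbpl9, Tinf2, Vps26a, Slc46a1, Ebpl and Retreg1, and the 4 below are shown because they cover both early and late midpoints: those of Avpi1, Osbpl9 and Tinf2 fell at 0.959 mg/kg and that of Retreg1 at 959. Windows run as before in build GRCr8, at chr1:250885399-250885698 (minus strand), chr5:129190770-129191069 (minus), chr15:33146881-33147180 (minus) and chr2:78065874-78066173 (plus), and capitals mark the palindrome.
Avpi1: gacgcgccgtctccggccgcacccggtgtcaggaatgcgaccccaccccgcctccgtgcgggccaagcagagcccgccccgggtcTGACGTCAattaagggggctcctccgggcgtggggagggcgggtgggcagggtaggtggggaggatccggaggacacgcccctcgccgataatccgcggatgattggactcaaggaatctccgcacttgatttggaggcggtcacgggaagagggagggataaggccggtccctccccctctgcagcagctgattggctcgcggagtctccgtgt
Osbpl9: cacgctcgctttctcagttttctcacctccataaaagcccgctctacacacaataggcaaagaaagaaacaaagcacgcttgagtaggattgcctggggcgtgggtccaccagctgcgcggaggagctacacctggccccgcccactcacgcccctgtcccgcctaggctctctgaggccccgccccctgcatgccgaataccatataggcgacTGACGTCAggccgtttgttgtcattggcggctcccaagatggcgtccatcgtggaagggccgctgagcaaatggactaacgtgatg
Tinf2: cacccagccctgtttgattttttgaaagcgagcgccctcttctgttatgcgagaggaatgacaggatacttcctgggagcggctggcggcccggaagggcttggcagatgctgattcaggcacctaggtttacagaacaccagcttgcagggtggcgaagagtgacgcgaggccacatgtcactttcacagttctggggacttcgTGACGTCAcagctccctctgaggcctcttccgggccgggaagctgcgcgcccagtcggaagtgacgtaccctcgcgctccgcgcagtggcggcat
Retreg1: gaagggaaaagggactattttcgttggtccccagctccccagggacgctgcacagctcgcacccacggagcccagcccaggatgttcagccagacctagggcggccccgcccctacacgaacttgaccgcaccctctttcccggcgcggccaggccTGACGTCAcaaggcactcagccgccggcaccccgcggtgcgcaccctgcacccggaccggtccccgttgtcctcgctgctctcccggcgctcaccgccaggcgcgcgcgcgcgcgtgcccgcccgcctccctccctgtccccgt
It lies 165, 36, 45 and 94 bases before the start in this order. Avpi1, a small gene named for its response to vasopressin, was higher at 959 mg/kg by 0.34 (SE 0.08) and Tinf2, of the telomere cap, by 0.38 (SE 0.086). Of the other motifs, read on both strands, CACGTG was in 13.5% of member promoters and 9.8% of those of ranked genes, GCGTG, the core that AhR binds, in 50.6% and 50.2%, and the longer TNGCGTG in 10.1% and 8.1%. TGACNNNGC, the core that NRF2 binds, was in 18.0% and 14.9%, and TCACNCCAC in 1.1% of both. GCGTG lies within TNGCGTG, so those counts overlap. Median GC content was 60.7% in member promoters and 61.0% in those of ranked genes. A match is only a run of letters, and 7 promoters are few.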

How the data were processed

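Liver RNA of 36 arrays was read as deposited: the authors' values are log2 signals per probe set, and per the submitters' processing notes RMA and the affy package were used, with versions and a genome build not given in the sources used here. Without 57 array controls, 31042 of 31099 probe sets were tested. A single symbol was annotated to 20826 of them, more than 1 to 436 and none to 9780; 99 of the 100 members' gene IDs were found in RefSeq. Groups came from the sample titles. The members, gene lists and tests were chosen with earlier results of these data known, and role groups after the names were seen.

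Each probe set was fitted in limma 3.58.1 under R 4.3.3, as a mean for each of the 6 groups with moderated variances (5.12 prior and 30 residual degrees of freedom), with two-sided contrasts of each dose against vehicle and a line in dose rank, and Benjamini-Hochberg adjustment over all probe sets at 0.05. The design text names maanova, which was not at hand. The fit was tested on simulated data. The number of arrays limits the precision. Within groups, correlations used deviations from group means. Same-numbered arrays of different doses had a median correlation of -0.055 and differently numbered ones 0.010, so no pairing by number was seen.

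Named genes were the 10 members with the highest correlation, the 10 with the largest difference, 2 per dose step, up to 2 per list, those at the edge of the rule and those with extreme spread or level; others are members of a role group, chosen after their values were seen. Alternatives were other normalizations, filters, probe set rules, variance models, array weights, a replicate block, other correlations and each array left out; dose shapes without each array were added after seeing the data.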

Additional observations from a re-analysis of the deposited data

Results flagged for a closer look

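In 7 of 204 groups of 6 arrays, over 34 named genes, 1 array lay further from the others than Dixon's 95% limit allows, 3.43% where chance gives about 1 in 20. Highest in their groups were Nqo1 at 9.982 in replicate 1 of 959 mg/kg (next 8.223), Mid1 at 6.521 in replicate 5 of 0.959 mg/kg (next 5.617) and Psmd9 at 8.57 in replicate 6 of 0.1 mg/kg (next 8.381). Lowest in theirs were Adss1 at 6.521 in replicate 2 of vehicle (next 7.194), Tex2 at 9.342 in replicate 5 of 0.1 mg/kg (next 9.447), Sar1b at 11.116 in replicate 5 of 9.59 mg/kg (next 11.372) and Omd at 7.671 in replicate 4 of 0.959 mg/kg (next 7.843). Without replicate 1, Nqo1 at 959 mg/kg differed from vehicle by 0.65 in place of 0.98 and from 95.9 mg/kg by 0.25 in place of 0.58.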

How the results depend on the processing

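Who the members are depended on the end groups: 56 of the 100 were chosen again without the 959 mg/kg group and 49 without the vehicle group, against 76 to 98 when single arrays were left out. Anxa1 and Tmco1 were chosen in 14 of 36 such repeats and Omd and Retreg1 in 15. The counts of members called by limma moved with the settings: at 9.59 mg/kg 11 became 7 with the replicate block and 6 with the compared groups alone; at 95.9 mg/kg 6 became 10 when probe sets below the median level were dropped and 2 with the compared groups alone; at 959 mg/kg 7 became 16 without those below the median level, 14 with the brightest probe set per gene, 12 with an intensity trend, 16 with array weights, 4 with the replicate block and 0 with the compared groups alone. At 0.959 mg/kg 1 member was called without variance moderation. Leaving out single arrays gave 3 to 12 at 9.59, 4 to 9 at 95.9 and 2 to 12 at 959 mg/kg, 33 to 60 in the trend, and 0 at 0.1 and 0.959 mg/kg. No pairing by replicate number was seen, and the trend called 41 members with the block. The members' median difference at 95.9 mg/kg was 0.178 after quantile normalization was applied again. Leaving out single arrays gave medians of 0.020 to 0.052 at 0.1, 0.107 to 0.134 at 0.959, 0.171 to 0.207 at 9.59, 0.201 to 0.228 at 95.9 and 0.208 to 0.244 at 959 mg/kg. Differences of named genes kept their sign in all 1350 values. The rule chose these genes for their climb over the same arrays, so nothing is read from the sign. Of the 1350, 48 lost and 22 gained a call, and of those lost 30 were Slc1a2, 8 each Cnih1 and Vav2 and 1 each Cyb5a and Tex2. The cause of these moves was not tested. Small differences in bright genes and wide spread in Retreg1, Inmt and Nqo1 limit what 6 arrays a group can show.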
